A study of Homo sapiens with 9 samples.

Results

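Far intergenic regions were defined as FAIRE-seq regions whose mid-point lay outside every annotated gene, more than 1 kb from any transcription start site (TSS) and more than 100 kb from the nearest protein-coding TSS. Of 40703 merged regions on chromosomes 1 to 22, X and Y, 2019 met this definition (4.96%, 95% Wilson interval 4.75 to 5.18). The rule used position only and no measured value. Their median distance to a protein-coding TSS was 196 kb, with quartiles of 137 and 331 kb and a maximum of 2307 kb.

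FAIRE-seq recovers DNA that is not held by nucleosomes after formaldehyde fixation, so a peak marks open chromatin. Open chromatin far from genes often lies at enhancers, short stretches that bind sequence-specific transcription factors and act on promoters over long distances. In T cells, AP1 and NFAT are activated by stimulation through protein kinase C and calcium, whereas RUNX, ETS and GATA factors and the bHLH E proteins act in lineage identity.

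The libraries came from Jurkat, a human T-cell leukaemia line grown as a single clone, in a model of transcriptional memory. Non-stimulated cells (NS) received no PMA or calcium ionophore, and stimulus-withdrawal cells (SW) were given PMA at 24 ng/mL with the ionophore at 1 µM and then rested without stimulus for 1 day. The labels give 4 h of stimulation, whereas the methods of the study give a shorter time. Each state was pre-treated for 1 h with 15 µM rottlerin, a protein kinase C inhibitor, or with its vehicle DMSO. The 4 peak lists analysed are named here by their labels, NS_DMSO, SW_DMSO, NS_rottlerin and SW_rottlerin, with 1 library each. No list was labelled as any of the other 5 of the 9 samples. Those were stimulated cells (ST) and re-stimulated cells (RS) under each pre-treatment, and total input.

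The labels of the lists other than NS_DMSO are in doubt. By the methods of the study, peaks were called on vehicle-treated samples and the lists of the vehicle-treated states (NS, ST, SW and RS) were pooled. A pair of the lists given here is instead labelled rottlerin. Merging every peak of these 4 lists gave 40731 regions, 28 of them outside the chromosomes used, and this total is also the one given for the pooled vehicle-treated states. The 3 lists other than NS_DMSO may therefore describe vehicle-treated ST, SW or RS cells, which these files alone cannot settle. Each is called the list of its label, and no difference is read as an effect of rottlerin, of stimulation or of withdrawal.

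The lists held 18998 to 30425 peaks, with SW_rottlerin the longest, and the number of reads behind them is unknown. Of 12 T-cell genes, a region overlapped the 1 kb either side of a TSS in 6 for NS_DMSO, 7 for SW_DMSO, 7 for NS_rottlerin and 9 for SW_rottlerin, and CD3D, CD3E, CD28, LCK and BCL11B were marked in every list. CD2 and CD7 were marked in none. None of 8 genes of B cells, monocytes, liver or red cells was marked in any list. With 1 library per label no test between lists was possible, so no p-value is given. The Wilson intervals cover counting error alone, and they treat neighbouring regions as independent.

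Sequences of 11 far intergenic regions are shown because they carry the classes described below. They are the central 300 bases of each region on the plus strand of the GRCh37 reference, named by the nearest protein-coding gene. Capitals mark a match, on either strand, to TGANTCA (AP1), CNGGAAGT (ETS), TGTGGT (RUNX factors), AGATAA (for GATA factors), TGGAAAA (NFAT), GGGNNTTTC (NF-kB), GCGNGGGCG (EGR), the E-box letters CACCTG, the letters CAGCTG or the letters CATCTG, or a CTCF consensus. A match to the CTCF consensus can itself hold the letters of CACCTG or of the string CATCTG, which occurred in 11 and 6 of the regions, and the remaining strings can overlap only in part. A match describes the letters and is not evidence that a factor was bound. The first pair came from the 5 regions of highest fold enrichment among those with a peak in all 4 lists, near KIF20B (chr10:91987053-91987352) and HS6ST1 (chr2:129230765-129231064).
KIF20B: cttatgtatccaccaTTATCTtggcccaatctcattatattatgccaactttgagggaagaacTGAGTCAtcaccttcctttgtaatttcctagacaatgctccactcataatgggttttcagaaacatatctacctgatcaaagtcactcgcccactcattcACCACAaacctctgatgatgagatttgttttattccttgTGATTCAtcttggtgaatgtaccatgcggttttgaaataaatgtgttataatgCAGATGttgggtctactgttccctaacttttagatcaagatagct
HS6ST1: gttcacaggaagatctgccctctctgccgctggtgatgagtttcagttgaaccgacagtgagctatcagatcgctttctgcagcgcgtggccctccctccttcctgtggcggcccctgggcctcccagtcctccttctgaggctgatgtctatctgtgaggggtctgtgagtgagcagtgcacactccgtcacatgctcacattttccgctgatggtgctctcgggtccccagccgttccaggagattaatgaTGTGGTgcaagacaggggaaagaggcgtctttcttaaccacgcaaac

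The KIF20B window held AP1 matches on both sides of its RUNX match, and the HS6ST1 window held a RUNX match only. The next pair came from the 5 highest-scoring regions with a peak in every list but NS_DMSO, near FOXD3 (chr1:63577912-63578211) and GDF10 (chr10:48611561-48611860).
FOXD3: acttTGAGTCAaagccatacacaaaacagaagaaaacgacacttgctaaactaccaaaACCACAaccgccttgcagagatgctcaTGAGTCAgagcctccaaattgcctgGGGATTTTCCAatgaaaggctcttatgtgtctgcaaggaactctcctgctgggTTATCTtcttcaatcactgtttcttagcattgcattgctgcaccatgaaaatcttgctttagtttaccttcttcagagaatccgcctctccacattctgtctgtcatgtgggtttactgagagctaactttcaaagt
GDF10: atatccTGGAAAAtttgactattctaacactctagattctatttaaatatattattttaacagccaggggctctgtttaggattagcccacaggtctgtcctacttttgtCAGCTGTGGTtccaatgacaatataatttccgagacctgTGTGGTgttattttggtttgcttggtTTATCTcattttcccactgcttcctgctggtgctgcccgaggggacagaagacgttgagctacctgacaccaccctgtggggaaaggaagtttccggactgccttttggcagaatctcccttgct

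The FOXD3 window held 2 AP1 matches and the GDF10 window held none. The highest scores among regions with a peak in the NS_DMSO list alone lay near VRK1 (chr14:98189734-98190033), UACA (chr15:70740308-70740607) and MZT1 (chr13:72942227-72942526).
VRK1: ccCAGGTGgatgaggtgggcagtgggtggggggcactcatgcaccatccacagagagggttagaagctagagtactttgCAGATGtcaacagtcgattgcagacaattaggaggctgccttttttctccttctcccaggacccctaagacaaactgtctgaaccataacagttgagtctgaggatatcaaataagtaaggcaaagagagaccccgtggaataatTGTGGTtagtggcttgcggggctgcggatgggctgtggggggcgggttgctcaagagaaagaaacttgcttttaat
UACA: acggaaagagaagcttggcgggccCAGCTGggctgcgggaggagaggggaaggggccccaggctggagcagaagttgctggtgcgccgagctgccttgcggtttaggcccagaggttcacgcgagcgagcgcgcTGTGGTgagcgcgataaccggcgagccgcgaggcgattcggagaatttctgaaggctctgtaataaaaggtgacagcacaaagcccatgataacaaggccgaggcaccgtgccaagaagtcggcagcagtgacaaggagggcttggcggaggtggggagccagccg
MZT1: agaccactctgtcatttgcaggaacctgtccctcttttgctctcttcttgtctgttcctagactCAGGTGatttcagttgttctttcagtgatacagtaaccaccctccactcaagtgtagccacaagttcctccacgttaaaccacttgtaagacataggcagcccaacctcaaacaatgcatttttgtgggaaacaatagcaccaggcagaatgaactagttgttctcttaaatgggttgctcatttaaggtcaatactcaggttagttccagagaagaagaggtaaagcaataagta

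None of those 3 windows held an AP1 match, and the VRK1 and MZT1 windows held CACCTG, read as CAGGTG on the plus strand. The last set shows the region farthest from any coding gene, upstream of TENM3 (chr4:180757804-180758103), and the region of highest fold enrichment in each of 3 of the largest clusters, near CD83 (chr6:14382484-14382783), VRK2 (chr2:57901607-57901906) and LEF1 (chr4:109267435-109267734).
TENM3: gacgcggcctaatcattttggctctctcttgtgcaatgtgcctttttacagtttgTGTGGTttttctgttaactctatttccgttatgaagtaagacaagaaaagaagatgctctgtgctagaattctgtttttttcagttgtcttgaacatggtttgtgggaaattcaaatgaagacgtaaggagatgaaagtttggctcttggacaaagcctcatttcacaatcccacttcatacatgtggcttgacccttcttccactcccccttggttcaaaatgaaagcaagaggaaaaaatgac
CD83: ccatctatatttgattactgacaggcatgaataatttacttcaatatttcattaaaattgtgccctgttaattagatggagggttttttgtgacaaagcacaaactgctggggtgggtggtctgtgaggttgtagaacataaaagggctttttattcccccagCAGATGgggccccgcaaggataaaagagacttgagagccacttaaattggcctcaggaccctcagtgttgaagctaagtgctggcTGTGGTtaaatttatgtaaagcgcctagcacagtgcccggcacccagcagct
VRK2: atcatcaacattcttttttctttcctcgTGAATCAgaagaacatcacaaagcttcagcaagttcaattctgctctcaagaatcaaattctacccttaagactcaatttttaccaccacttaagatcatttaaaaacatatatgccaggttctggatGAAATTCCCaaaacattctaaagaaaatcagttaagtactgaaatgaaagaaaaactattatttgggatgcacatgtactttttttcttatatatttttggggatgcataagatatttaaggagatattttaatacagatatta
LEF1: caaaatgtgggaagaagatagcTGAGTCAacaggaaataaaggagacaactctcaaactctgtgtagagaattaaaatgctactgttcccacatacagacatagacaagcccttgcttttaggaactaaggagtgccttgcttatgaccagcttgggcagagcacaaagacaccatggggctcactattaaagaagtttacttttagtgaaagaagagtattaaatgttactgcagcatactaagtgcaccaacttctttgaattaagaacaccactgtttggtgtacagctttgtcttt

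Open chromatin was sparse in this part of the genome. Sequence that met the position rule made up 549 Mb, or 19.2% of known bases, and held 3.68 regions per Mb. Intergenic sequence nearer to coding genes held 12.3 regions per Mb, gene bodies over 1 kb from a TSS held 12.2 and sequence within 1 kb of a TSS held 60.8. Among chromosomes, the density was highest on chromosome 20 at 7.73 per Mb, followed by chromosome 15 at 7.04 and chromosome 10 at 6.09, and lowest on X at 1.64 and Y at 0.532. Copy number in Jurkat was not measured here.

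Individual regions were about as narrow and as enriched as intergenic regions nearer to genes. The median width was 271 bp in far intergenic regions and 267 bp in the 6207 intergenic regions within 100 kb of a coding TSS, called near intergenic here. The fold enrichment over input, as the peak caller gave it, had a median of 3.93 in NS_DMSO, 3.96 in SW_DMSO, 4.04 in NS_rottlerin and 3.94 in SW_rottlerin over the far regions with a peak in that list. In near intergenic regions these medians were 3.96, 3.95, 3.97 and 3.96. The highest value of each far region had a median of 3.98 and a maximum of 10.4. Regions within 1 kb of a TSS were wider, with a median of 353 bp, and their highest values had a higher median of 4.40. Just inside the distance limit, the regions near MED13, PRAG1 and JADE1 lay 100.1 to 100.2 kb from the TSS with fold enrichments of 3.83, 4.70 and 4.80, and just outside it those near GLIS3, ELMO1 and AKR1E2 lay 99.9 to 100.0 kb away with 3.48, 4.18 and 5.6.

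Peaks were found in 762 far intergenic regions for NS_DMSO, 728 for SW_DMSO, 939 for NS_rottlerin and 1312 for SW_rottlerin. These were 4.03%, 3.63%, 3.95% and 4.33% of the regions with a peak in each list, so the order of the counts largely followed the length of the lists, except that SW_DMSO had more peaks than NS_DMSO in all and fewer here. A single list held the peak in 1055 regions (52.3%, 50.1 to 54.4), against 38.8% of all merged regions. The share was 45.9% in near intergenic regions and 46.9% in genic regions over 1 kb from a TSS. Of these 1055 regions, SW_rottlerin alone accounted for 467, NS_DMSO alone for 258, NS_rottlerin alone for 218 and SW_DMSO alone for 112. As shares of far regions these were 23.1%, 12.8%, 10.8% and 5.55%, against 18.2%, 7.83%, 8.42% and 4.32% of all regions. A further 180 had peaks in only the 2 rottlerin lists, 128 in only the 2 SW lists, 59 in only the 2 NS lists and 33 in only the 2 DMSO lists. These were 8.92%, 6.34%, 2.92% and 1.63% of far regions, against 8.44%, 6.26%, 2.07% and 1.26% of all regions.

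Few far intergenic regions were shared by every list. A peak in all 4 lists was present in 247 (12.2%, 10.9 to 13.7), against 15.6% (14.7 to 16.5) of near intergenic regions and 26.6% of all regions. A peak in NS_DMSO alone was present in 258 (12.8%, 11.4 to 14.3), against 8.99% (8.30 to 9.73) near genes and 7.83% of all regions. With every list cut to the length of the shortest by score, these 3 shares were 22.4% (20.4 to 24.6), 15.9% and 13.3%. The 1257 regions without an NS_DMSO peak made up 62.3% (60.1 to 64.3), which lay within the counting error of the 62.2% of near intergenic regions and above the 53.5% of all regions. Of these, 135 had a peak in every list but NS_DMSO (6.69%, 5.68 to 7.86), against 7.08% of all regions.

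**Figure D1:**
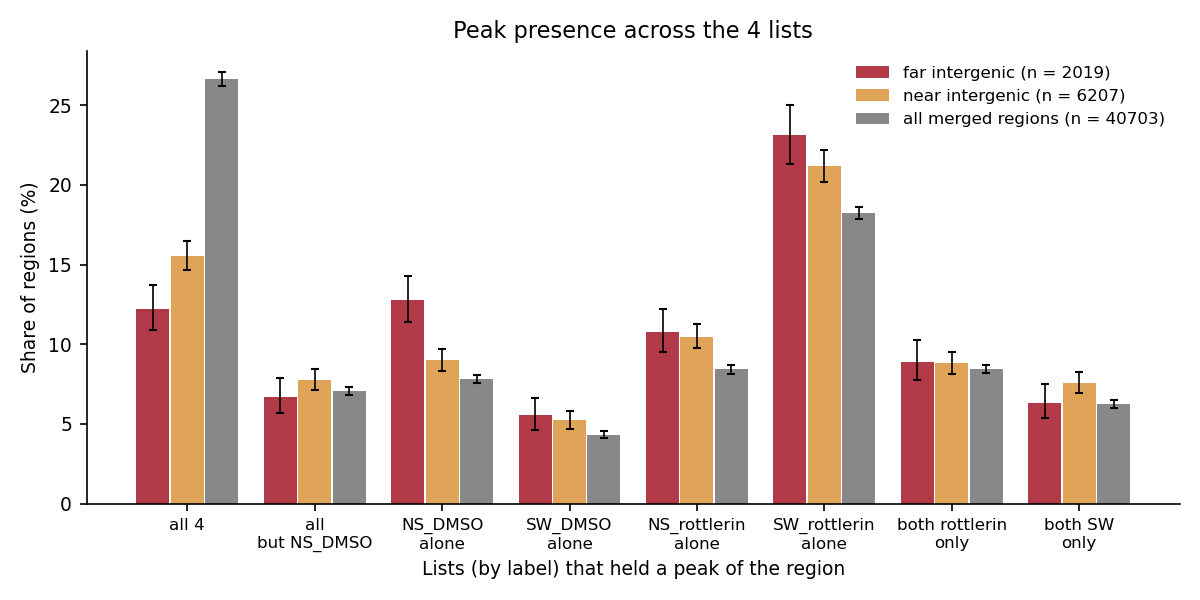
Share of regions (%) by the lists that held a peak, for far intergenic, near intergenic and all merged regions. Bars give the share and error bars the 95% Wilson interval. Far intergenic regions had the lowest share in all 4 lists (12.2%) and the highest share in NS_DMSO alone (12.8%).

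The higher share in NS_DMSO alone went with low peak scores. Among regions whose highest score was over 9 and at most 30, the share was 22.7% (19.7 to 26.0) in far, 14.5% (12.8 to 16.4) in near intergenic and 17.9% (16.9 to 19.0) in genic regions. For scores over 30 and at most 50 the far and near shares were 13.8% (11.1 to 16.9) and 12.1% (10.7 to 13.7), over 50 and at most 80 they were 5.96% and 6.19%, and over 80 they were 1.16% and 1.72%. With only the higher-scoring 50% of each list, the far and near shares were 9.17% (7.25 to 11.5) and 9.28% (8.21 to 10.5), and the difference was lost. The share in all 4 lists at scores over 80 was 51.3% (46.0 to 56.5) in far and 50.6% in near regions. The median score was 42 in far, 48 in near and 54 in all regions.

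Presence also moved with distance. A peak in NS_DMSO alone was present in 9.54% (7.51 to 12.0) of 650 regions 100 to 150 kb from a coding TSS and in 19.8% (15.7 to 24.7) of 298 regions over 500 kb away. A peak in all 4 lists was present in 12.9% (10.6 to 15.7) and 7.05% (4.66 to 10.5) of the same regions. The 3 bins between them gave 12.1% to 13.7% for NS_DMSO alone and 11.8% to 14.9% for all 4 lists. The share in all 4 lists was thus outside the range of these bins in the farthest bin only, and the share in NS_DMSO alone in both the nearest and the farthest. The median score was 45 in the nearest bin and 31.5 in the farthest, and the median GC content was 43.3% and 39.8%; the part of score and GC content in this pattern was not tested.

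**Figure D2:**
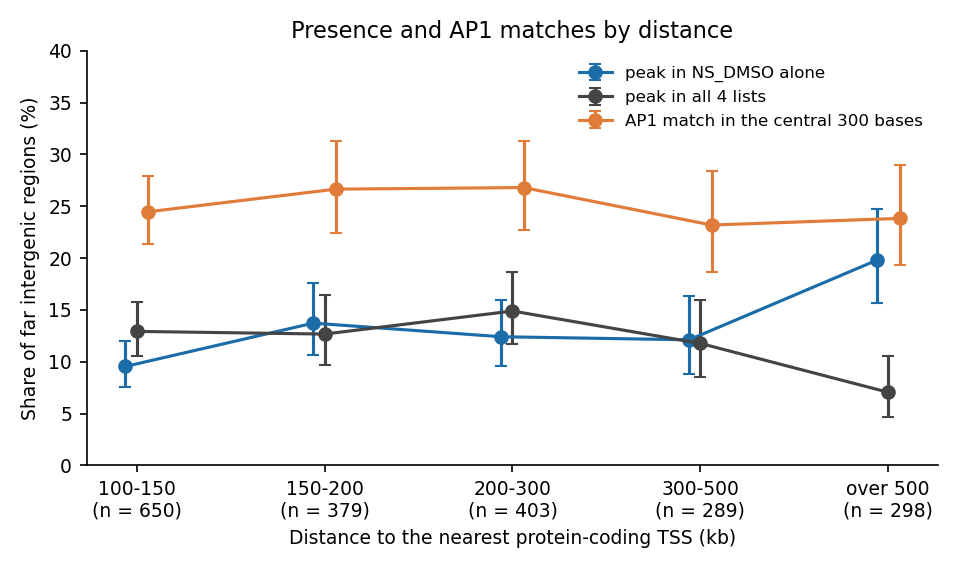
Share of far intergenic regions (%) against distance to the nearest protein-coding TSS (kb), with 95% Wilson intervals, for a peak in NS_DMSO alone, a peak in all 4 lists and an AP1 match. The share in NS_DMSO alone was 9.54% in the nearest bin and 19.8% in the farthest, while AP1 matches stayed between 23.2% and 26.8%.

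Pairs of lists were compared by presence and by the ratio of fold enrichment, and the 4 comparisons share lists. For SW_DMSO against NS_DMSO, 1154 far regions had a peak in either list. Of these, 392 had it in SW_DMSO only (34.0%, with 28.4% over all regions) and 426 in NS_DMSO only (36.9%, with 24.1% over all regions). Among 336 regions with both peaks the median log2 ratio was -0.066, with quartiles of -0.25 and 0.15. The ratio was at least 1.5 in 9 of these regions (2.68%, with 1.67% over all regions) and at least 1.5 the other way in 12 (3.57%, with 2.18%).

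For NS_rottlerin against NS_DMSO, 550 regions had a peak in NS_rottlerin only (41.9%, with 34.7% over all regions) and 373 in NS_DMSO only (28.4%, with 18.0%). The 389 regions with both had a median log2 ratio of 0.077, with 23 at least 1.5-fold higher in NS_rottlerin (5.91%, with 3.19% over all regions) and 9 in NS_DMSO (2.31%, with 1.38%). For SW_rottlerin against SW_DMSO, the longest list against a shorter one, 756 regions had a peak in SW_rottlerin only (50.9%, with 39.7%) and 172 in SW_DMSO only (11.6%, with 8.79%). Their 556 shared regions had a median log2 ratio of 0.12, with 30 at least 1.5-fold higher in SW_rottlerin (5.40%, with 3.75%) and 3 in SW_DMSO (0.540%, with 0.344%).

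For SW_rottlerin against NS_rottlerin, 677 regions had a peak in SW_rottlerin only (41.9%, with 32.6%) and 304 in NS_rottlerin only (18.8%, with 14.0%). The 635 shared regions had a median log2 ratio of 0.0022, with 24 at least 1.5-fold higher in SW_rottlerin (3.78%, with 2.60%) and 7 in NS_rottlerin (1.10%, with 0.987%). Presence in 1 list only was thus more frequent in far intergenic regions than over all regions in both directions of each comparison. Near intergenic regions also exceeded the share over all regions in each case, and far regions did not always exceed them. The near share was 36.5% for SW_DMSO only and 29.4% for NS_DMSO only in the first comparison, and 42.7% for NS_rottlerin only and 21.9% for NS_DMSO only in the second. It was 45.9% for SW_rottlerin only and 11.3% for SW_DMSO only in the third, and 38.7% for SW_rottlerin only and 18.2% for NS_rottlerin only in the fourth. Where both lists had a peak, the fold enrichment seldom differed by 1.5-fold. Over all regions the median log2 ratios of the first to the fourth comparison were -0.029, 0.051, 0.12 and 0.041. Peaks present in 1 list only scored lower than shared peaks; in the first comparison their median score was 36 for SW_DMSO and 31 for NS_DMSO, against 51 and 56 in shared regions.

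The single regions with the highest fold enrichment differed in which list led. Near KIF20B, a mitotic kinesin gene (chr10:91986981-91987424, 504 kb from its TSS), the fold enrichment was 4.72 in NS_DMSO, 8.80 in SW_DMSO, 7.91 in NS_rottlerin and 10.4 in SW_rottlerin, so NS_DMSO was lowest. Near TOX, a regulator of T-cell development (chr8:60444194-60444896, 413 kb), the values in the same order were 7.18, 6.41, 9.05 and 10.3. Near HS6ST1, a heparan sulfate sulfotransferase gene (chr2:129230568-129231261, 154 kb), they were 7.58, 7.12, 8.42 and 9.52. Both of these regions were highest in the rottlerin lists. In the region near TLL1, a metalloprotease gene (chr4:167064401-167064758, 268 kb), SW_DMSO was highest at 8.90, with 5.81 in NS_DMSO, 5.69 in NS_rottlerin and 4.73 in SW_rottlerin. Near FBXW7, a ubiquitin ligase subunit gene (chr4:153000997-153001930, 244 kb), NS_DMSO was highest at 8.74, with 3.89, 5.00 and 4.15 in the others.

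The FBXW7 region had the largest ratio in favour of NS_DMSO over SW_DMSO, 2.25-fold, among far regions with both peaks. The largest ratio the other way, 1.97-fold, lay near BUB3, a spindle checkpoint gene (chr10:125047375-125047809), where the fold enrichment was 3.52 in NS_DMSO, 6.95 in SW_DMSO, 5.56 in NS_rottlerin and 6.56 in SW_rottlerin. Near GADD45G, a stress-induced gene (chr9:92444753-92445682), NS_DMSO stood above the rest at 6.93, with 3.46, 3.68 and 3.30 in the other 3, which is 1.88-fold over NS_rottlerin. Near TRIM36, a ubiquitin ligase gene (chr5:114218105-114218613), NS_rottlerin led NS_DMSO by 1.85-fold, with 6.23 against 3.38, and SW_rottlerin gave 3.70. Near HMGA2, an architectural chromatin protein gene (chr12:66060755-66061046), SW_rottlerin reached 7.51 against 3.98 in SW_DMSO and 3.89 in NS_rottlerin, with no NS_DMSO peak, the largest ratios in both comparisons of SW_rottlerin. The largest ratio of NS_rottlerin over SW_rottlerin, 1.83-fold, lay near ARHGAP20 (chr11:110708486-110708803), with 6.06 against 3.31, and that of SW_DMSO over SW_rottlerin, 1.88-fold, was the TLL1 region. Each of these ratios compares single libraries.

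Among regions with a peak in every list but NS_DMSO, 4 of the 5 with the highest scores are described, near FOXD3, GDF10, TGFBR2 and BACH2. The FOXD3 region (chr1:63577804-63578319, 210 kb upstream of this forkhead factor gene) gave 6.79 in SW_DMSO, 4.73 in NS_rottlerin and 8.61 in SW_rottlerin. The GDF10 region (chr10:48611430-48611992, 173 kb from a growth factor gene) gave 4.77, 4.28 and 7.12. In both, SW_rottlerin was highest and NS_rottlerin lowest. Near TGFBR2, a TGF-beta receptor gene (chr3:30389116-30389465), NS_rottlerin was highest at 7.61, against 6.0 in SW_DMSO and 6.13 in SW_rottlerin. The region near BACH2, a transcriptional repressor gene (chr6:91106797-91108312), was 1516 bp wide and gave 4.84, 5.03 and 6.26.

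With a peak in NS_DMSO alone, the highest-scoring regions gave a fold enrichment of 5.62 near VRK1, a nuclear kinase gene (chr14:98189768-98190000), 4.01 near UACA (chr15:70740330-70740585), 5.93 near MZT1, a gamma-tubulin complex gene (chr13:72942250-72942504), 5.72 near EPHA7, an ephrin receptor gene (chr6:93327469-93327862), and 4.74 near SPACA1, a sperm acrosome gene (chr6:88628263-88628621). The UACA window had a GC content of 63.3% and 24 CpGs, against medians of 42.0% and 2 over far regions. Of the 31-base words in the EPHA7 window, 82.6% occurred once in the genome, against all of them in the other 4. The 3 regions farthest from a coding TSS each had a peak in 1 list. The TENM3 region (chr4:180757800-180758107, 2307 kb) had 3.81 in NS_rottlerin, the PCDH7 region (chr4:33105761-33106091, 2179 kb) had 3.23 in SW_rottlerin and the UQCRFS1 region (chr19:27740182-27740447, 1964 kb) had 1.85 in NS_rottlerin, with 77.4% of its 31-base words unique.

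The sequence of far intergenic regions was poor in CpG and held more matches to several T-cell factor motifs than its surroundings. Only 27 regions (1.34%, 0.921 to 1.94) met a CpG island criterion of over 50% GC and an observed over expected CpG ratio above 0.6. The share was 4.85% in near intergenic regions, 1.94% (1.75 to 2.14) in genic regions over 1 kb from a TSS and 21.0% in all regions. All 31-base words were unique in 1747 regions (86.5%), and fewer than 50% were unique in 13. No region matched the mitochondrial genome over 50 or more bases.

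RUNX was the most frequent motif searched, in 866 regions (42.9%, 40.7 to 45.1). It was found in 37.4% of near intergenic and 32.8% of all regions, and in 19.7% of 4038 windows of 300 bases centred 1 kb to either side of the far regions. AP1 was found in 506 (25.1%, 23.2 to 27.0), against 22% near genes, 17.9% of all regions and 9.71% of the flanking windows. GATA was found in 29.6% (27.7 to 31.6), against 24.5%, 21.0% and 21.5%, and ETS in 10.2% (8.91 to 11.5), against 10.3%, 10.5% and 3.57%. In genic regions over 1 kb from a TSS the shares were 40.4% for RUNX, 21.8% for AP1, 26.4% for GATA and 9.38% for ETS. The flanking windows had a median GC content of 40.3%, against 42.0% in the regions.

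NFAT, NF-kB and CACCTG were found at shares near those of the flanks. NFAT was found in 12.8% of far regions, 10.2% of all regions and 12.1% of flanks, NF-kB in 4.41%, 5.03% and 3.71%, and CACCTG in 19.9%, 21.4% and 20.3%. CAGCTG was found in 16.1%, 17.1% and 10.4%, and CATCTG in 25.4%, 21.4% and 19.2%. The CTCF consensus was found in 64 regions (3.17%, 2.49 to 4.03), against 6.25% (5.68 to 6.88) of near intergenic regions, 3.46% of all regions and 0.322% of flanks. Genic regions over 1 kb from a TSS gave 3.09%, close to the far share. EGR was found in 9 far regions (0.446%), against 3.89% of all regions and 0.124% of flanks.

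Motif content differed by the lists that held the peak. AP1 matches were present in 48.9% (40.6 to 57.2) of the 135 regions with a peak in every list but NS_DMSO and in 42.9% (34.1 to 52.1) of those in SW_DMSO alone. The shares were 30.8% (26.8 to 35.2) in SW_rottlerin alone, 19.0% (14.6 to 24.4) in all 4 lists, 13.8% (9.81 to 19.0) in NS_rottlerin alone and 10.1% (6.97 to 14.4) in NS_DMSO alone, where the flanks gave 9.69%. Near intergenic regions of the same classes gave 45.1%, 39.7%, 24.2%, 14.7%, 15.4% and 6.45%. The order was therefore nearly that of regions closer to genes.

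CACCTG, the letters bound by E proteins and by ZEB1, followed another order. It was present in 31.8% (26.4 to 37.7) of regions in NS_DMSO alone, against 18.0% of their flanks, and in 28.6% (21.0 to 37.5) of those in SW_DMSO alone. It was present in 13.5% (10.7 to 16.9) of regions in SW_rottlerin alone, against 19.7% of their flanks, and in 11.9% (8.27 to 16.9) of those in NS_rottlerin alone, against 20.4%. Near intergenic regions in NS_DMSO alone gave 43.4% (39.3 to 47.5). The median GC content was 40% in NS_DMSO alone, 39.7% in SW_DMSO alone, 41.3% in NS_rottlerin alone and 42.3% in SW_rottlerin alone.

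NFAT and GATA matches were highest in SW_rottlerin alone, at 21.4% (17.9 to 25.4) and 35.8% (31.5 to 40.2), with flanks of 12.8% and 21.8%. The NFAT interval overlapped that in SW_DMSO alone (16.1%, 10.4 to 24.0). The GATA interval overlapped those in NS_rottlerin alone (31.7%, 25.8 to 38.1), in every list but NS_DMSO (27.4%, 20.6 to 35.5) and in all 4 lists (26.3%, 21.2 to 32.1). In near intergenic regions GATA was highest in NS_rottlerin alone (28.8%), against 26.2% in SW_rottlerin alone. NFAT was lowest in NS_rottlerin alone at 4.59% (2.51 to 8.24), below its flanks of 9.86%. This interval overlapped those in all 4 lists (5.30 to 12.2) and in NS_DMSO alone (5.70 to 12.6). It also overlapped that in every list but NS_DMSO (6.28 to 16.7). RUNX was present in 49.8% (43.6 to 56.0) of regions in all 4 lists and 48.8% (42.8 to 54.9) of those in NS_DMSO alone, and lowest in NS_rottlerin alone at 27.1% (21.6 to 33.3). ETS was highest in NS_rottlerin alone at 13.8% and lowest in SW_DMSO alone at 4.46%, with intervals that overlapped slightly. Regions in a single list were narrow, with median widths of 200 to 228 bp and median scores of 26 to 32, against 456 bp and 105 in all 4 lists, and the part of width and score in these shares was not tested.

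**Figure D3:**
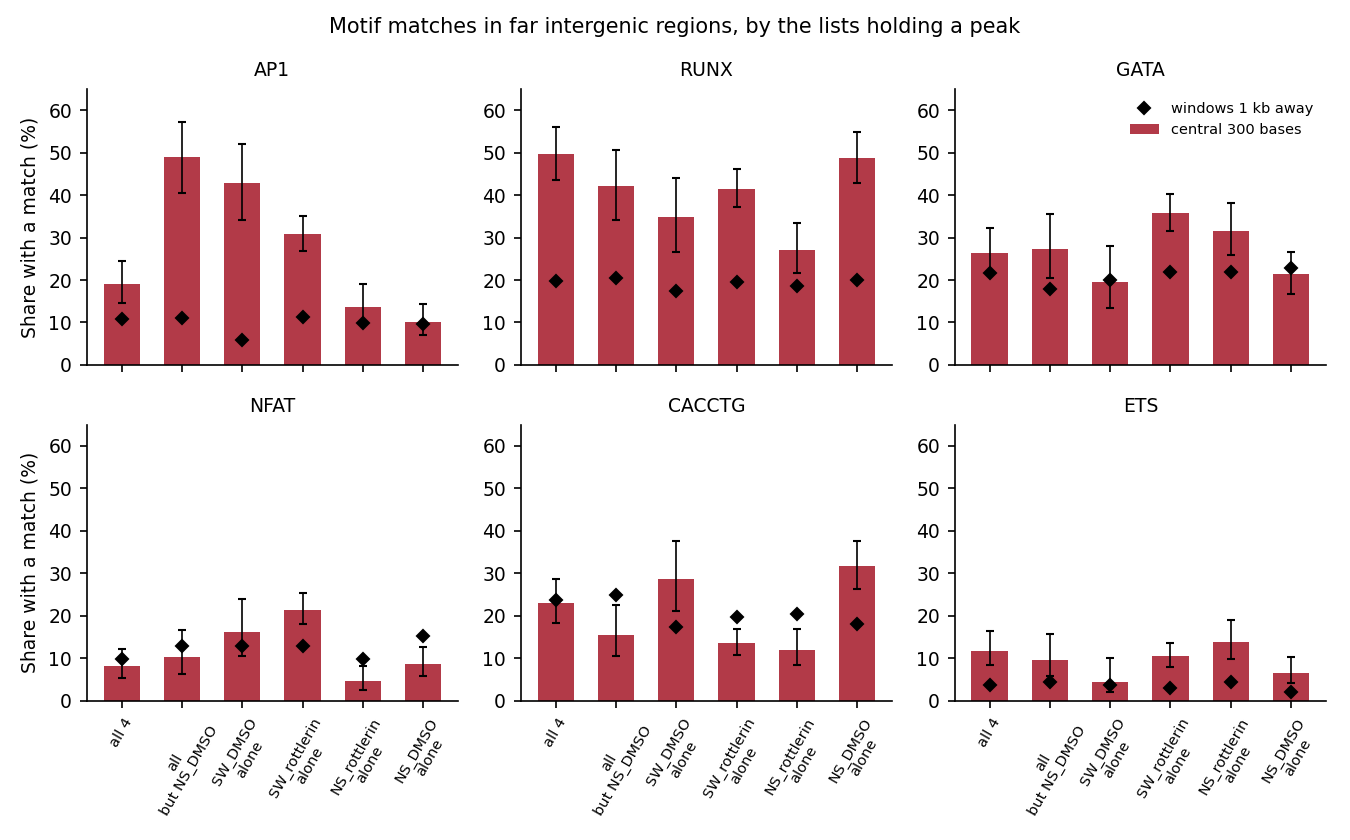
Share of far intergenic regions (%) with a match to each of 6 motifs in the central 300 bases, by the lists that held a peak. Bars carry 95% Wilson intervals and diamonds give the share in windows 1 kb to either side. AP1 ran from 48.9% in all but NS_DMSO to 10.1% in NS_DMSO alone, and CACCTG was highest, at 31.8%, in NS_DMSO alone.

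Matches gathered at the mid-points for RUNX, and in some classes only for AP1 and CACCTG. In regions with a peak in all but NS_DMSO, the central 100 bases held 31.1 AP1 matches per 100 regions, against 2.22 and 2.96 in the bins 500 bp to either side. In SW_rottlerin alone the centre held 17.8, against 3.64 and 3.85. In NS_DMSO alone the AP1 profile had no central rise, with 3.49 at the centre, 3.49 at -500 bp and 2.33 at 500 bp. CACCTG showed the converse, with 17.1 at the centre of regions in NS_DMSO alone and 6.98 and 7.75 at the ends, against 5.93 at the centre in all but NS_DMSO and 6.21 in SW_rottlerin alone. RUNX was central in all 4 classes plotted, at 35.2 in all 4 lists, 32.6 in NS_DMSO alone, 28.9 in all but NS_DMSO and 22.7 in SW_rottlerin alone.

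**Figure D4:**
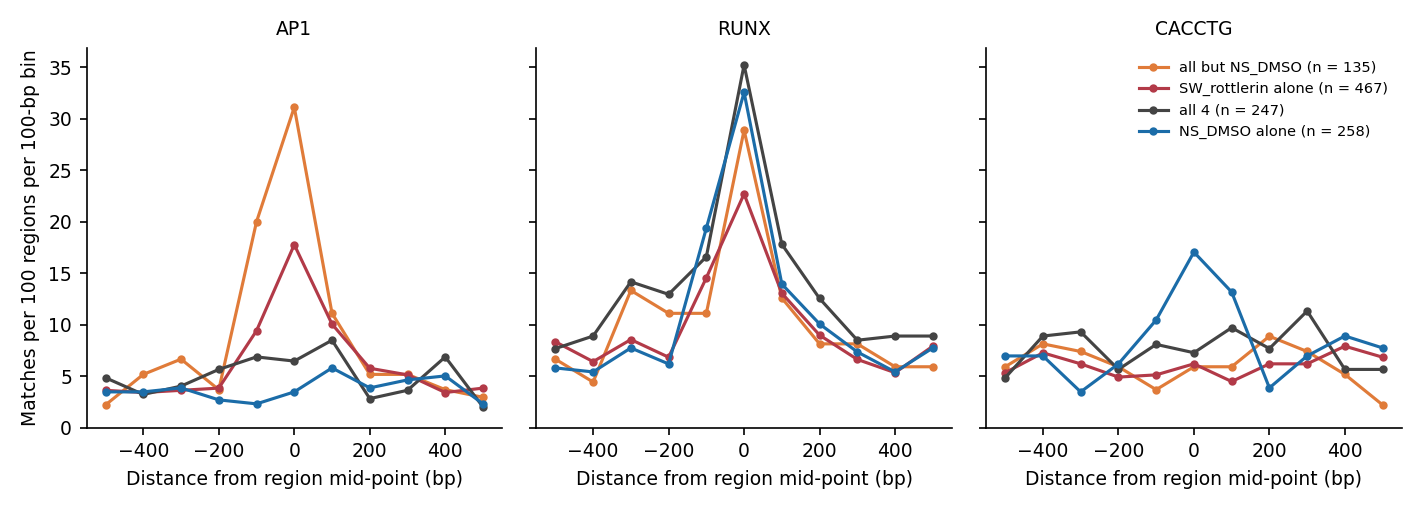
Motif matches per 100 far intergenic regions in each 100-bp bin against distance from the region mid-point (bp), for AP1, RUNX and CACCTG in 4 classes of presence. AP1 peaked at the centre in all but NS_DMSO (31.1) and in SW_rottlerin alone (17.8), CACCTG in NS_DMSO alone (17.1) and RUNX in each class.

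Some far intergenic regions were neighbours, and the matching share in other parts was not computed. With regions joined when they lay within 20 kb of each other, 777 (38.5%, 36.4 to 40.6) fell into 302 clusters of 2 or more and 1242 stood alone. The clusters held 2 regions in 207 cases, 3 in 51, 4 in 25, 5 in 8, 6 in 7 and 7 in 4. The 4 clusters of 7 and the cluster of 6 with the highest fold enrichment are described below.

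The first of them spanned 29.4 kb between CD83, a surface protein gene of activated lymphocytes and dendritic cells, and JARID2, a Polycomb-associated gene (chr6:14353573-14382998). Only its last region had a peak in NS_DMSO, and there the values of the 4 lists were close, with 5.77 in NS_DMSO, 6.0 in SW_DMSO, 5.01 in NS_rottlerin and 5.05 in SW_rottlerin. The other 6 gave 2.61 to 4.26 in 1 to 3 lists, and 2 of these, both with SW peaks, held AP1 matches. The LEF1 cluster (chr4:109260421-109294372, 34.0 kb), upstream of a Wnt-pathway factor of early T cells, had 3 regions in all 4 lists. In the widest, 2426 bp, the fold enrichment was 4.91 in NS_DMSO, 3.74 in SW_DMSO, 4.12 in NS_rottlerin and 3.30 in SW_rottlerin. Another, without a peak in either NS list, gave 4.33 in SW_DMSO and 5.55 in SW_rottlerin and held an AP1 match, printed above.

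The VRK2 cluster (chr2:57892645-57926452, 33.8 kb), upstream of a kinase gene, had peaks mainly in the lists labelled NS. NS_DMSO had a peak in 5 of its 7 regions, NS_rottlerin in 3, SW_DMSO in 1 and SW_rottlerin in 1. The region with all 4 peaks gave 5.6 in NS_DMSO, 4.23 in SW_DMSO, 5.41 in NS_rottlerin and 4.36 in SW_rottlerin. In contrast, 4 regions in NS_DMSO alone gave 2.85 to 3.53, with low scores of 14, 14, 18 and 47. AP1 matches were present in 5 of the 7, including 3 of those in NS_DMSO alone, unlike that class as a whole.

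The GATA3 cluster (chr10:8267082-8296713, 29.6 kb) lay downstream of the gene of this T-cell lineage factor. One region had all 4 peaks, with 5.19 in NS_DMSO, 4.26 in SW_DMSO, 5.24 in NS_rottlerin and 5.03 in SW_rottlerin, and the other 6 had peaks in the rottlerin lists only, at 2.81 to 4.82. The SPACA1 cluster (chr6:88617282-88632931, 15.7 kb), between AKIRIN2 and SPACA1, held 2 regions with all 4 peaks, at 6.71, 5.92, 5.09 and 5.32 and at 5.58, 4.69, 4.39 and 3.09 in the order of lists used above. Between them lay 1 region with a peak in every list but NS_DMSO, at 3.95 in SW_DMSO, 4.20 in NS_rottlerin and 4.94 in SW_rottlerin, and 3 regions in NS_DMSO alone, at 3.13, 3.73 and 4.74. NS_DMSO was highest in both regions with all 4 peaks.

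**Figure D5:**
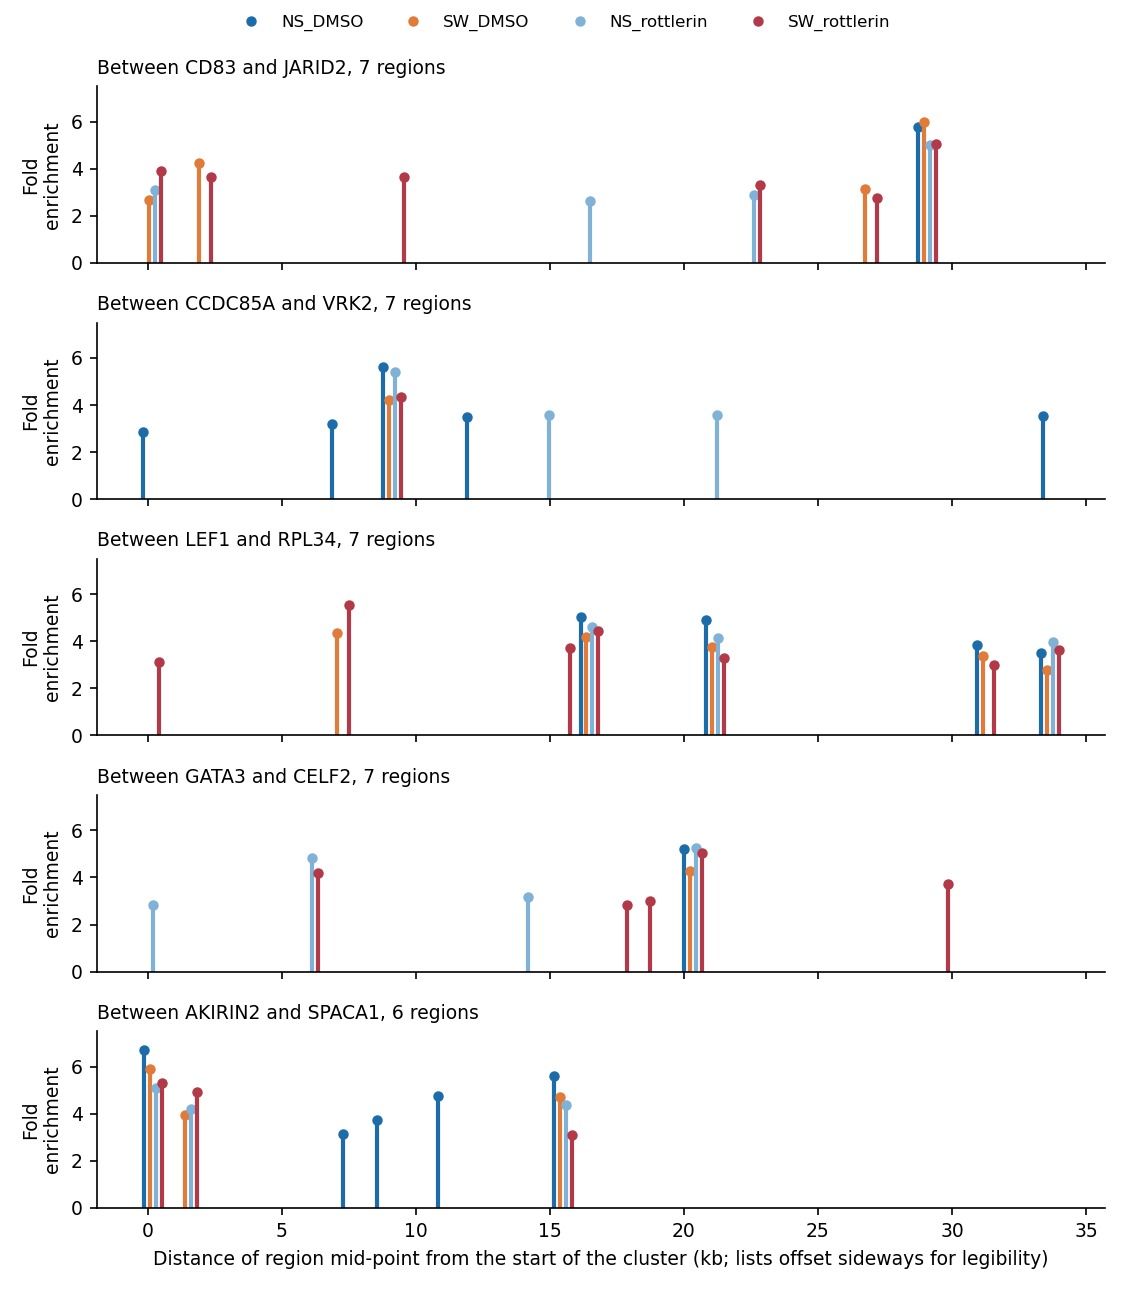
Fold enrichment over input in each list against distance from the start of the cluster (kb) for the 5 clusters described, each stem a peak of 1 list in 1 region. In the CD83, VRK2 and GATA3 clusters 1 region had all 4 peaks and most of the others had peaks in 1 or 2 lists.

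The 2019 regions had 939 nearest protein-coding genes, of which 487 had 1 region and 83 had 5 or more. GATA3 had the most, with 26, all downstream and 102 to 1321 kb from its TSS. SW_rottlerin had a peak in 20 of them, NS_rottlerin in 13, and NS_DMSO and SW_DMSO in 6 each, so 20 lacked an NS_DMSO peak. Of all 2019 far regions, SW_rottlerin had a peak in 1312, NS_rottlerin in 939, NS_DMSO in 762 and SW_DMSO in 728. An NS_DMSO peak was lacking in 1257. A SW_rottlerin peak and the lack of an NS_DMSO peak were thus each usual in far regions. Whether the counts of any gene depart from this was not tested. CD83 had 19 regions, with a peak in 7 for NS_DMSO, 10 for SW_DMSO, 14 for NS_rottlerin and 16 for SW_rottlerin. BCOR, a BCL6 corepressor gene, had 17, and SW_rottlerin had a peak in all 17, SW_DMSO in 10, NS_rottlerin in 6 and NS_DMSO in 3. HS6ST1 had 16, of which 12 held a RUNX match and 9 had an NS_DMSO peak.

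SPRY2, an inhibitor of receptor tyrosine kinase signalling, VRK1 and VRK2 had 13 regions each. VRK2 differed from the other 2, with 10 peaks in NS_DMSO, 1 in SW_DMSO, 5 in NS_rottlerin and 2 in SW_rottlerin, and 8 of its regions had a peak in NS_DMSO alone. The counts for SPRY2 were 3, 2, 8 and 8 and for VRK1 5, 3, 4 and 7. CBLB, a ubiquitin ligase gene that restrains T-cell receptor signalling, and DIAPH3, a formin gene, had 12 each, with 9 each in SW_rottlerin and 3 each in NS_DMSO. ETS1, an ETS-family factor gene, had 11, with 7 in NS_DMSO, 5 in SW_DMSO, 6 in NS_rottlerin and 8 in SW_rottlerin. A gene in a wide gene-poor interval collects more regions, and the nearest gene need not be the one a region acts on.

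Of 36 T-cell transcription factor genes, 14 were the nearest coding gene of at least 1 far intergenic region, with 81 regions in all. Of all 20163 protein-coding genes, 939 were. The 81 regions made up 4.01% of far regions, and the 36 genes 0.179% of coding genes. Of the 81, those without an NS_DMSO peak numbered 49 (60.5%, 49.6 to 70.4), close to the 62.3% over all far regions. All 4 peaks were present in 16 (19.8%, 12.5 to 29.7, against 12.2%). After GATA3 and ETS1 came LEF1 with 10 regions, TOX and BCL6 with 7 each and BCL11B with 5. BCL6, a repressor that drives follicular helper T-cell identity, lacked an NS_DMSO peak in 6 of its 7, and SW_rottlerin had a peak in 6. All 5 BCL11B regions had a peak in NS_rottlerin, 3 had one in NS_DMSO and 2 had all 4. The others were MYC with 4, BACH2 and ZEB2 with 3 each, and SOX4, RUNX2, ID2, NFATC2 and ZEB1 with 1 each. No NS_DMSO peak was found in the regions of BACH2, ID2, NFATC2, ZEB1 or ZEB2.

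Of 33 inducible and surface genes of T cells, 7 had a region, 35 in all. The 35 regions made up 1.73% of far regions, and the 33 genes 0.164% of coding genes. Of these 35 regions, 28 lacked an NS_DMSO peak (80%, 64.1 to 90.0), against 62.3% over all far regions. The list holds genes, such as DUSP10 and FASLG, near which the study reported accessibility gained over NS in these data. The choice of genes may thus have raised the share, and the interval treats regions of the same gene as independent. SPRY2 held 13 of the 35, of which 10 lacked an NS_DMSO peak. CXCR4, a chemokine receptor gene, had 9, all upstream, with a peak in 3 for NS_DMSO, 6 for SW_DMSO, 4 for NS_rottlerin and 8 for SW_rottlerin, and 4 held an AP1 match. DUSP4, a MAP kinase phosphatase gene, had 5 regions and DUSP10, another of that family, had 4. None of these 9 had an NS_DMSO peak, and SW_rottlerin had one in each. DUSP4 regions had a peak in 4 for SW_DMSO and 2 for NS_rottlerin, with fold enrichments of up to 7.61. FASLG had 2 regions, both without an NS_DMSO peak, and ICOS and PTGER4 had 1 each. The ICOS region had peaks in all 4 lists and the PTGER4 region in the 2 SW lists. The remaining 26 genes of this list had none.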

How the data were processed

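FAIRE-seq of Jurkat cells gave 9 samples, and 4 peak lists were analysed, 1 library per label. By the labels and the methods, the authors used CutAdapt for trimming, Bowtie2 with hg19 for mapping, Picard against duplicates, and MACS2 for broad peaks over total input. The methods describe this peak calling for the vehicle-treated samples only. Versions are not given in the sources used here. The deposited lists hold a score, a ratio (fold enrichment over input), and for each peak its p-value and q-value as −log10. They hold q up to 0.0983, above the cut-off of 0.05 given in the methods. Depth is unknown.

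Overlapping or touching peaks were merged. The fold enrichment of a region in a list was its highest peak there. Positions were read against GENCODE release 44 on GRCh37, counting every transcript start of a protein-coding gene. Motifs and GC content were computed in the central 300 bases. The genome used was not soft-masked, so the planned repeat share was replaced by the share of 31-base words found once. BLAST 2.17.0 compared regions with the mitochondrial genome. Python 3.11.15, numpy 2.4.6 and pandas 2.3.3 were used. Merging, placing and motif search were tested on simulated data.

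The members and lists were chosen with earlier results of these data known. Regions named were the 5 of highest fold enrichment in all 4 lists, the 5 of highest score in all but NS_DMSO (1 of which is not reported here) and in NS_DMSO alone, the 3 farthest from a coding TSS, the 5 clusters with most regions and the extreme ratios of each comparison. Genes named were their nearest coding genes, the 10 nearest to most regions and those of the T-cell lists with a region. Alternatives covered distance, gene types, score, q, chromosomes, merging, window and, chosen after seeing the data, transcript type, the SW_rottlerin list and unique sequence.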

Additional observations from a re-analysis of the deposited data

Results flagged for a closer look

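The difference between SW and NS ran in opposite directions under the 2 pre-treatment labels. Under DMSO, the SW list had a peak in 34 fewer far intergenic regions than the NS list (728 against 762, a difference of -34), and under rottlerin it had a peak in 373 more (1312 against 939). Over all regions SW exceeded NS under both labels, with 20050 against 18920 and 30321 against 23760. The difference was not tested, since each label has 1 library, and the labels of these lists are in doubt.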

How the results depend on the processing

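No paired analysis was possible because each label has 1 library and no result comes from a test. Of the alternative values of the counts, presence shares and median ratios, 43 stayed within the limits set (1.5-fold for counts, the 95% interval for shares and medians) and 12 did not. The median log2 ratio of SW_rottlerin against NS_rottlerin was -0.013 beyond 200 kb, against 0.0022, and both intervals included 0. No other of these median ratios changed sign. For SW_DMSO against NS_DMSO the interval included 0 in the higher-scoring 50% (-0.103 to 0.0387) and beyond 200 kb (-0.141 to 0.0061). For NS_rottlerin against NS_DMSO it included 0 in the higher-scoring 50% (-0.0038 to 0.114). The number of regions was 3302 beyond 50 kb, 990 beyond 200 kb and 698 from the higher-scoring 50% of each list. The share in NS_DMSO alone was 11% beyond 50 kb, 14.5% beyond 200 kb and 9.17% from the higher-scoring 50%, where the share in all 4 lists was 10.7% and that without an NS_DMSO peak 67.5%. With every list cut to the length of the shortest by score, the share without an NS_DMSO peak was 48.3% and that in NS_DMSO alone 22.4%, and without the list labelled SW_rottlerin, an alternative chosen after seeing the data, these were 50.8% and 19.0%. Both alternatives remove peaks of the longest list, so the share without an NS_DMSO peak depends on list length. In them the share in NS_DMSO alone stayed above that of near intergenic regions (15.9% and 13.4%). Of 12 alternative motif shares, 9 left the interval, 5 in the wider window (AP1, ETS, RUNX, GATA and NFAT) and 4 in the higher-scoring 50% (AP1, RUNX, GATA and CTCF). The depth of the libraries is unknown.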
